A study of Mus musculus with 2 samples.

Results

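The replication-dependent histone genes were taken as the protein-coding genes whose symbol begins with Hist1h, Hist2h, Hist3h or Hist4h in the GENCODE M21 annotation. Of 39017 genes in the count table, 59 met this rule. A minimum of 20 counts summed over both libraries left 51 of the 59, which are called measured here. The other 8 held 24 counts in all, and 3 of them had none in either library. The annotation holds 67 such genes, and the 8 without a row in the table (Hist1h2bh, Hist1h2bm, Hist1h3d, Hist1h3f, Hist1h3g, Hist1h3h, Hist1h3i and Hist2h2bb) were not analysed here. RNA was sequenced from Lin- Sca-1+ c-Kit+ (LSK) cells of mouse bone marrow, the fraction that holds haematopoietic stem cells and early multipotent progenitors. The miR-146a-/- library came from a pool of 6 mice, and the WT library from a pool of 12 mice. All animals were C57BL/6J and 10 to 14 weeks old, and miR-146a-/- was the only allele or agent the labels name. Each genotype had 1 library of ribodepleted total RNA, so differences stand without replicates and describe the 2 libraries, not the genotypes.

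Replication-dependent histone genes supply the histones that package newly copied DNA, and their RNA accumulates in S phase and is degraded when DNA synthesis ends. Core histones H2A, H2B, H3 and H4 form the nucleosome, and the linker histone H1 binds the DNA that enters and leaves it. Most of these genes have no intron, and their mRNA ends in a conserved stem-loop, bound by SLBP, in place of a poly(A) tail. Because ribodepleted total RNA is not selected for a poly(A) tail, such mRNA can be recovered in these libraries. MiR-146a is a microRNA that NF-kB switches on, and it dampens Toll-like and IL-1 receptor signalling.

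The stem-loop is shown first, because it is the element that the histone mRNAs share and the rule did not use. It was sought after the stop codon as a 6-base stem, a 4-base loop and the second arm of the stem. The search used a consensus with fixed bases at both ends of each arm, and pyrimidines set against purines between them. The element was present in 37 of the 51 measured genes. The stem was fully paired in all 37, which the consensus largely set, and elements off the consensus would be missed. Of the 38 genes with at least 60 annotated bases after the stop codon, 36 held it, the exceptions being the H2B genes Hist1h2bc and Hist2h2be. The other 13 genes had under 60 annotated bases there, so the window was too short to judge most of them. The element began 21 to 58 bases after the stop codon, with a median of 31. It occurred in 7 forms, and 1 carrier of each is given 5′ to 3′ as DNA on the transcript's strand, from GENCODE M21 transcripts (build GRCm38, the assembly of mm10), with the 16 bases of the element in capitals and up to 5 flanking bases in lower case.
Hist1h4h (chr13:23531453-23531478, + strand): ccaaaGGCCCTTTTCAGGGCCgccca
Hist1h4b (chr13:23757361-23757386, + strand): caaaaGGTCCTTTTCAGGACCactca
Hist2h4 (chr3:96262934-96262959, - strand): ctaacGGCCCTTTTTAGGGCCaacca
Hist1h4a (chr13:23760795-23760820, - strand): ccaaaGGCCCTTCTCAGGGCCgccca
Hist1h3b (chr13:23752815-23752840, + strand): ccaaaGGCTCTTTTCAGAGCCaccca
Hist1h2bk (chr13:22036295-22036320, + strand): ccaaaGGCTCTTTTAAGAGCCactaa
Hist2h2ac (chr3:96220413-96220438, - strand): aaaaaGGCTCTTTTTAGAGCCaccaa
The stems of the first 4 sequences, of which that of Hist1h4b differs from the rest, were found in H4 genes only. The last 3 sequences share a stem, found in H1, H2A, H2B and H3 genes only. The form of Hist1h4h was shared by 7 H4 genes, the form of Hist1h4b also by Hist1h4j, and the form of Hist2h4 also by Hist1h4i. Among the other classes, the form of Hist1h3b was shared by 20 genes and that of Hist1h2bk by 4. Between H4 and the other classes, stem form and histone class therefore cannot be told apart in these data. Within H4, Hist1h4b and Hist1h4j had log2 ratios of -1.28 and -1.04, the 7 genes with the form of Hist1h4h had a median of -0.80, and Hist1h4i and Hist2h4 had -0.32 and -0.10.

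The libraries held 22231389 counts (miR-146a-/-) and 35069136 counts (WT), of which protein-coding genes took 51.5% and 81.4%. Counts were scaled by the trimmed mean of M-values (TMM), and ratios are log2 of miR-146a-/- over WT. Their 95% intervals are exact Clopper-Pearson intervals turned into ratios, and cover counting error only. A gene was called where its entire interval passed 1.5-fold in 1 direction. Of 13880 measured genes, 212 (1.53%) were called lower and 742 (5.35%) higher, at a median log2 ratio of -0.01. Of 12319 measured protein-coding genes, 178 (1.44%) were called lower and 538 (4.37%) higher. LSK marker genes were present, with 12167 counts in miR-146a-/- and 26003 in WT for the receptor gene Kit, and none of 9 such markers was called. The 65-base hairpin of Mir146 had 0 counts in both libraries, so the labels could not be checked on it. Summed markers of other cell types, in normalised CPM (counts scaled to library size) for miR-146a-/- and then WT, were 5.86 and 13.9 for neutrophils (3 of 6 measured markers called lower) and 3.35 and 6.46 for B and plasma cells (1 of 2 called lower). They were 37.6 and 37.2 for T and NK cells (1 of 3 called higher), 3.41 and 3.13 for erythroid precursors (0 of 5 called) and 88.7 and 84.5 for monocytes (1 of 6 called higher). Nkg7 (31.7 and 34.4 CPM) made up most of the T and NK sum, and Lyz2 (51.4 and 62.9 CPM) most of the monocyte sum. Measured markers had a median log2 ratio of 0.92 for T and NK cells (2 positive, 1 negative). For monocytes it was 0.67 (4 positive, 2 negative). The T-cell genes Cd3e, Cd3g and Cd8a and the erythroid gene Alas2 were at 0 in both libraries. The part of these markers in the results below was not tested.

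Before adjustment for exon length and GC content, histone gene RNA was lower as a whole in the miR-146a-/- library. H4 genes lay furthest below their WT level among the 5 classes. The 59 genes together had 65551 counts (3920 normalised CPM) in miR-146a-/- and 217617 counts (4668 CPM) in WT. Their summed log2 ratio was -0.25 (-0.26 to -0.24), or 0.84 of the WT level, which is within 1.5-fold. They made up 0.572% of protein-coding counts in miR-146a-/- and 0.763% in WT. Gene by gene, 40 of the 51 ratios were negative and 11 positive, with a median of -0.38 and a range of -1.67 to 1.62. In all, 13 genes (25.5%) were called lower, against 1.44% of protein-coding genes, and 1 was called higher, against 4.37%. Over all 12319 protein-coding genes, 53.4% of ratios were negative and the median was -0.03. The 51 ratios had an SD of 0.60, and the protein-coding ratios an SD of 0.53.

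Short genes as a whole had lower ratios in these libraries. The median log2 ratio was -0.16 in the tenth of protein-coding genes with the shortest exons and 0.17 in the tenth with the longest. The measured histone genes had a median exon length of 572 bases, and 48 of 51 had a single exon. After subtracting the median ratio of the 500 other protein-coding genes nearest in exon length and GC content, the histone median was -0.27, and 10 genes were called lower and 1 higher. With this adjustment the class sums were -0.38 for H4, -0.28 for H1, -0.0086 for H3, 0.11 for H2B and 0.14 for H2A. In bulk RNA, fewer cells in S phase and less histone RNA per cell cannot be told apart.

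**Figure D1:**
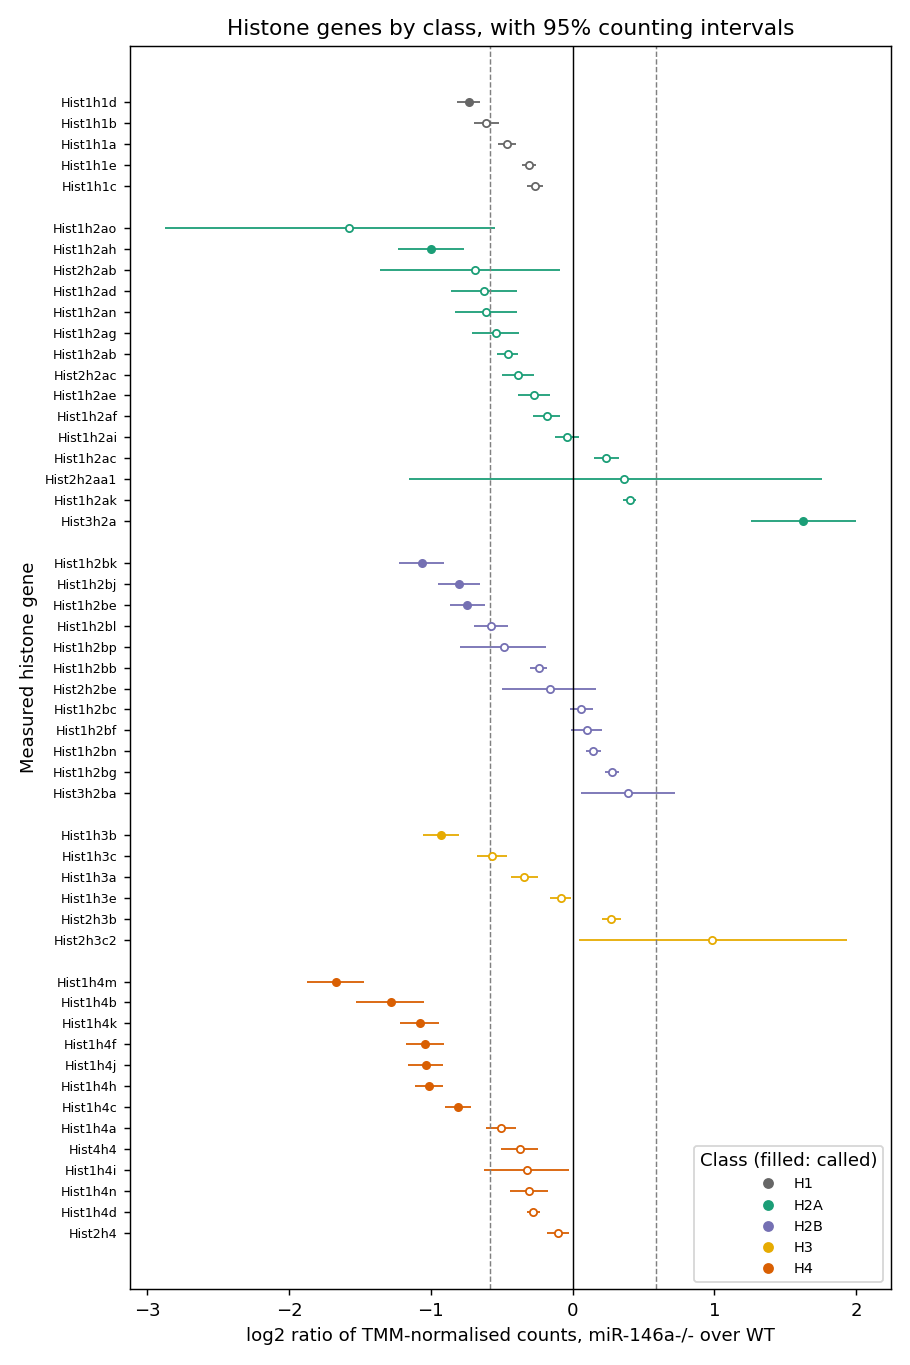
Log2 ratio of TMM-normalised counts, miR-146a-/- over WT, on the horizontal axis for each of the 51 measured histone genes, grouped by class, with 95% counting intervals. Filled points are the 13 genes called lower and 1 called higher, dashed lines mark 1.5-fold, and all 13 H4 genes lie below 0.

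H4 is the most conserved core histone, and all of its genes encode the same or nearly the same protein. The 13 H4 genes had 13878 counts (830 CPM) in miR-146a-/- and 56798 counts (1218 CPM) in WT. Every one of their ratios was negative, from -1.67 to -0.10, with a median of -0.80, and 7 were called lower. The ratio of the class sum was -0.55 (-0.58 to -0.53), just short of a call. It was -0.71 (-0.75 to -0.68), past the threshold, without Hist1h4d, the most abundant H4 gene. The 11 H4 genes of the Hist1 cluster had a summed ratio of -0.62 (-0.65 to -0.59), also past the threshold. The class sum was -0.38 once adjusted for length and GC content.

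Hist1h4m (ENSMUSG00000069306), a single-exon gene on chromosome 13 from 21811746 to 21812147, had the lowest ratio of all measured histone genes. It had 229 counts (13.7 CPM) in miR-146a-/- and 2029 counts (43.5 CPM) in WT, a log2 ratio of -1.67 (-1.87 to -1.47). The miR-146a-/- level was 3.18-fold lower. Hist1h4n, which shares at least 80% of its 50-base windows with it, had 591 counts in miR-146a-/- and 2035 in WT (-0.30). The near-identical pair summed to 820 and 4064 counts, a ratio of -0.83 (-0.94 to -0.72), which was called lower. How reads shared by the 2 copies were assigned is not known here, so the sum is the safer value.

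The next lowest H4 genes lay close together. Hist1h4b had 166 counts in miR-146a-/- and 1127 in WT, a log2 ratio of -1.28 (-1.53 to -1.05). It overlaps the antisense gene 4930558J22Rik, which had 1 count in miR-146a-/- and 0 in WT. Hist1h4k had 501 counts in miR-146a-/- and 2948 in WT (-1.08). Hist1h4f had 554 and 3173 (-1.04), and Hist1h4j had 640 and 3659 (-1.04). All 4 were over 2-fold lower in miR-146a-/-. Hist1h4h had 1001 counts in miR-146a-/- and 5631 in WT (-1.01), and Hist1h4c had 1183 and 5761 (-0.80, and -0.60 without a call once adjusted for length and GC content). Other H4 genes were nearer to equal. Hist1h4d had 5536 counts in miR-146a-/- and 18681 in WT (-0.28), and Hist2h4, on chromosome 3, had 1800 and 5395 (-0.10, -0.18 to -0.03). Hist4h4, on chromosome 6, had 635 and 2292 (-0.37). With Hist1h4m and Hist1h4n taken as a pair, the H4 genes ran from near parity to 2.43-fold lower (Hist1h4b).

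**Figure D2:**
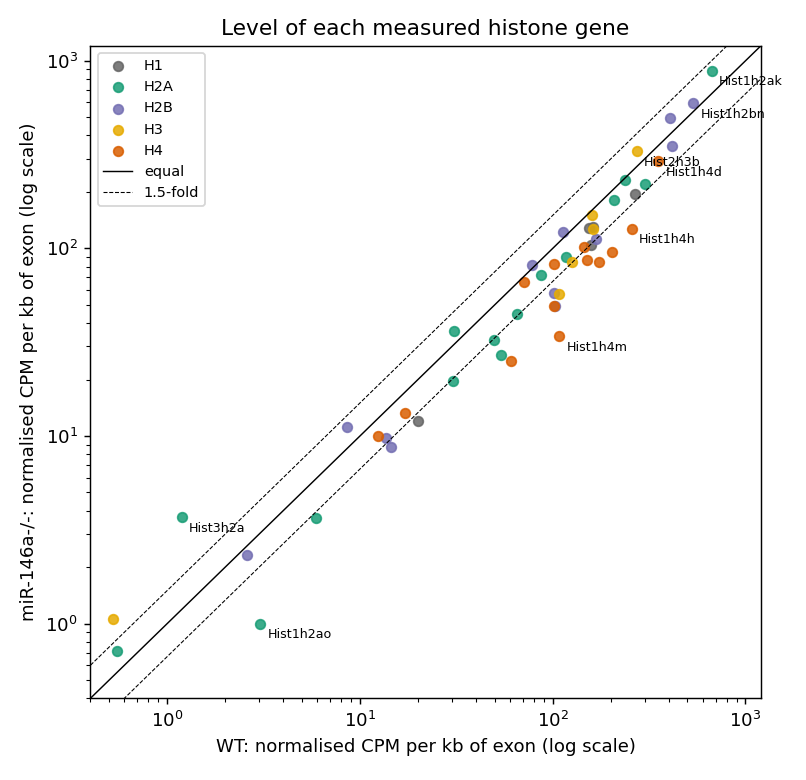
Level of each measured histone gene in normalised CPM per kb of exon, miR-146a-/- on the vertical axis and WT on the horizontal axis, both on log scales, coloured by class. The solid line marks equal levels and the dashed lines 1.5-fold, and the order of levels was alike in both libraries (Spearman rho 0.97 over 51 genes).

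H1 genes were all below their WT level, within a narrow range. The 5 measured H1 genes had 12769 counts (764 CPM) in miR-146a-/- and 47439 counts (1018 CPM) in WT, a summed ratio of -0.41 (-0.44 to -0.39), which was not called. Hist1h1d was the only H1 gene called lower, with 1495 counts in miR-146a-/- and 6923 in WT (-0.73, -0.81 to -0.65). Hist1h1a, which had the highest level per length in the class, had 193.9 CPM per kb in miR-146a-/- and 267.0 in WT (-0.46). Hist1h1e had 4219 counts in miR-146a-/- and 14570 in WT (-0.31), and Hist1h1c had 3354 and 11214 (-0.26). Hist1h1t, the testis H1, had 3 and 4 counts and was not measured. The summed H1 ratio was -0.28 once adjusted for length and GC content.

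H2A and H2B sums were near parity, but their genes were spread widely around it. The 15 measured H2A genes had 870 CPM in miR-146a-/- and 878 CPM in WT (summed ratio -0.01, -0.04 to 0.01), while their median ratio was -0.38. Each H2A gene has exons that overlap another annotated gene, as Hist1h2ak does with Gm44454 over 138 bases. Reads of these overlaps cannot be assigned with certainty. The 12 measured H2B genes had 1013 CPM in miR-146a-/- and 1056 CPM in WT (-0.06, -0.09 to -0.04), with a median of -0.20. Both sums changed sign after adjustment for length and GC content, to 0.14 for H2A and 0.11 for H2B. One abundant gene weighs on each sum. Hist1h2ak had the highest level per length of any histone gene, with 886.4 CPM per kb in miR-146a-/- and 669.8 in WT (log2 ratio 0.40, 0.36 to 0.45). Not divided by length, it had 348.4 CPM in miR-146a-/- and 263.2 in WT, and the H4 gene Hist1h4d had 331.0 and 400.7. Without Hist1h2ak the H2A sum was -0.24. Hist1h2bg had 5107 counts in miR-146a-/- and 11736 in WT (0.28, 0.23 to 0.33), and without it the H2B sum was -0.19. Hist1h2bn, the H2B gene with the highest level per length, had 593.5 CPM per kb in miR-146a-/- and 536.1 in WT (0.15).

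In H2A and H2B, 4 genes were called lower, and Hist3h2a, described with its cluster below, was called higher. Hist1h2bk had 393 counts in miR-146a-/- and 2289 in WT (-1.06, -1.22 to -0.91). Hist1h2ah had 182 and 1013 (-0.997), Hist1h2bj had 449 and 2182 (-0.80), and Hist1h2be had 647 and 3015 (-0.74). Hist1h2bj (-0.64) and Hist1h2be (-0.69) lost their calls once adjusted for length and GC content, and Hist1h2be also under a minimum of 200 counts (-0.70). Hist1h2ah is 1 of 4 near-identical H2A genes, with Hist1h2ad, Hist1h2ai and Hist1h2an, whose summed ratio was -0.27 (-0.35 to -0.20) and not called. Hist1h2be has exons that overlap the H1 gene Hist1h1e and a pseudogene, so reads of the overlap cannot be assigned with certainty. Hist1h2ab, an abundant H2A gene, had 219.6 CPM per kb in miR-146a-/- and 301.7 in WT (-0.46). Hist1h2ao had 8 counts in miR-146a-/- and 68 in WT, a ratio of -1.58 whose interval of -2.88 to -0.55 did not pass the threshold.

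H3 genes lay below their WT level in the Hist1 cluster and above it in Hist2. The 6 measured H3 genes had 444 CPM in miR-146a-/- and 499 CPM in WT, a summed ratio of -0.17 (-0.21 to -0.13). That sum was -0.0086 once adjusted for length and GC content, and -0.37 without Hist2h3b, its most abundant gene. In the Hist1 cluster all 4 H3 genes with a row were below their WT level, with a summed ratio of -0.37 (-0.42 to -0.33). The annotated Hist1 genes Hist1h3d, Hist1h3f, Hist1h3g, Hist1h3h and Hist1h3i have no row, so every H3 sum leaves them out. Hist1h3b was called lower, with 589 counts in miR-146a-/- and 3121 in WT (-0.93, -1.06 to -0.80), and Hist1h3e had 2101 and 6207 (-0.08, and 0.11 once adjusted). In the Hist2 cluster the sum was 0.28 (0.21 to 0.34). Almost all of it was Hist2h3b, with 2684 counts in miR-146a-/- and 6191 in WT (0.27), where the overlapping antisense gene Gm20628 had 2 and 9 counts. Hist2h3c2 had 18 counts in miR-146a-/- and 25 in WT, and its ratio of 0.98 had an interval of 0.05 to 1.94.

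**Figure D3:**
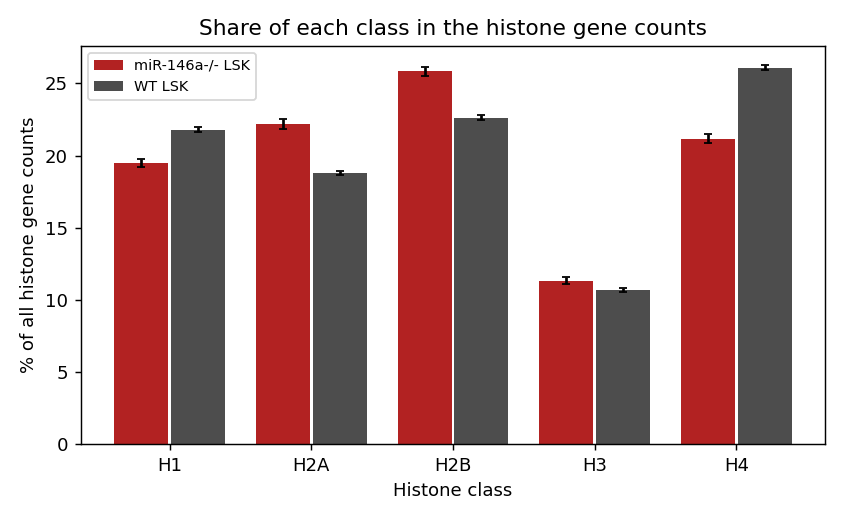
Share of all histone gene counts taken by each class, in percent, for the miR-146a-/- library (left bar of each pair) and the WT library (right bar), with 95% Clopper-Pearson intervals. H4 took 21.2% in miR-146a-/- and 26.1% in WT.

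The class make-up of the counted histone RNA differed accordingly, and this measure does not depend on scaling between libraries. The annotated genes without a row are all H3 or H2B genes. The shares therefore leave part of these classes out and are not the full make-up. H4 took 21.2% (20.9 to 21.5%) of histone gene counts in miR-146a-/- and 26.1% (25.9 to 26.3%) in WT. H1 took 19.5% (19.2 to 19.8%) and 21.8% (21.6 to 21.97%). H2B took 25.8% (25.5 to 26.2%) in miR-146a-/- and 22.6% (22.4 to 22.8%) in WT, and H2A took 22.2% (21.9 to 22.5%) and 18.8% (18.6 to 19.0%). H3 was closest to even, at 11.3% and 10.7%. The intervals of the 2 libraries did not overlap for any class, and they leave out variation between animals. Single genes weighed on this. The H2A genes other than Hist1h2ak took 13.3% (13.0 to 13.6%) in miR-146a-/- and 13.2% (13.0 to 13.3%) in WT, and the H3 genes other than Hist2h3b took 7.23% and 7.84%.

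By cluster, lower calls fell in Hist1 and none in the other 3 clusters. Hist1, on chromosome 13, held 41 measured genes and 90.4% of histone counts in miR-146a-/- and 91.9% in WT. It had a summed ratio of -0.28 (-0.29 to -0.26), a median of -0.51 and all 13 lower calls. Its sum was -0.12 once adjusted for length and GC content, and that of Hist2 was 0.17. Hist2, on chromosome 3, held 7 measured genes with a summed ratio of 0.02 (-0.03 to 0.06), a median of -0.10 and no call. Its H2A gene Hist2h2ac had 783 counts in miR-146a-/- and 2847 in WT (-0.38), and Hist2h2ab had 27 and 122 (-0.69, -1.36 to -0.09). Its H2B gene Hist2h2be had 102 and 318 (-0.16), and Hist2h2aa1 had 7 and 15. With 7 genes against 41, the difference between the clusters was not tested.

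Hist3, on chromosome 11, held the only gene called higher. Hist3h2a had 132 counts (7.89 CPM) in miR-146a-/- and 119 counts (2.55 CPM) in WT, a log2 ratio of 1.62 (1.26 to 1.998), or 3.08-fold higher. Its annotated exons overlap those of Trim17 and Gm44313 over 846 bases in all, and Trim17 had 1 count in each library. The H2B gene Hist3h2ba had 115 counts in miR-146a-/- and 244 in WT (0.39, 0.06 to 0.72). The pseudogene Hist3h2bb-ps of the same cluster, named after its values were seen, had 127 and 182 counts (0.96, 0.62 to 1.29). All 3 rows of the cluster were above their WT level, at low counts. The sum of the 2 protein-coding genes, 0.92 (0.68 to 1.16), passed the threshold, and by protein-coding totals it did not (0.76).

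Within Hist1 the genes lie in runs separated by over 100 kb. The first run of 15 genes, from 21715763 to 21837530, had a summed ratio of -0.12 (-0.15 to -0.09), with 3 of 12 measured genes called lower. The second, 5 genes from 22035164 to 22043676, had 1508 counts in miR-146a-/- and 7379 in WT, a ratio of -0.81 (-0.89 to -0.73). It was the only run called lower, with 3 of its 5 genes called, and the call was lost after adjustment for length and GC content (-0.65). Limited to genes with mostly unique sequence, this run is the 1 gene Hist1h4i (-0.32, not called), and the first run is 3 genes (Hist1h4j, Hist1h1b and Hist1h2bp) that sum to -0.75, which was called. The third run, 25 genes from 23531050 to 23764406, had a ratio of -0.31 (-0.32 to -0.29), with 7 of 24 measured genes called lower. A last pair, Hist1h2ba and Hist1h2aa, which are testis histones, had 0 counts in both libraries. Called and uncalled genes were interleaved in the 2 longer runs.

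**Figure D4:**
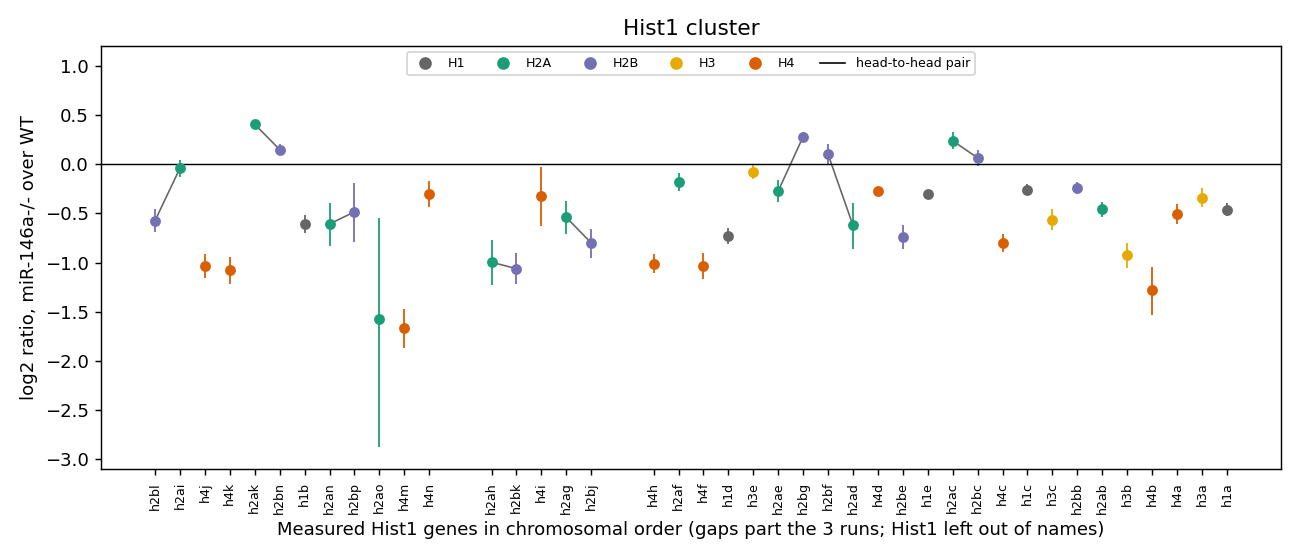
Log2 ratio, miR-146a-/- over WT, with 95% counting intervals for the 41 measured Hist1 genes in chromosomal order, with gaps between the 3 runs and lines joining head-to-head H2A and H2B genes. The lowest gene of the first run (Hist1h4m) and that of the last run (Hist1h4b) are H4 genes. Hist1h4m belongs to a near-identical pair whose sum was -0.83, and the next lowest gene of its run is the H2A gene Hist1h2ao (-1.58).

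H2A and H2B genes are often paired head to head around a shared promoter region. Of 12 such pairs within 1 kb, 9 had both genes measured, with 175 to 301 bases between their annotated starts. Partners had Pearson r 0.61 and Spearman rho 0.50 over the 9 pairs, given as a description. Their median absolute difference in log2 ratio was 0.26, and H2A was above H2B in 5 of 9. Hist1h2ak and Hist1h2bn were both above their WT level (0.40 and 0.15), and Hist1h2ah and Hist1h2bk were both lower (-0.997 and -1.06). Partners could also part, as Hist1h2ad (-0.62) and Hist1h2bf (0.10) did.

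Promoter windows were compared by class for 4 motifs. RefSeq promoter windows (build GRCm38.p6, from 250 bases before to 50 after the start) matched 55 of the 59 genes. Windows of head-to-head H2A and H2B partners overlap, so a motif between them can count for both genes. The counts below are therefore of windows, not of separate sites. CCAAT, the motif bound by NF-Y, was searched on both strands and was in 46 of 55 windows (83.6%), against 37.9% of all 27025 promoters. It was in every H1, H2A, H2B and H3 window and in 3 of 12 H4 windows. TATAAA, on both strands, was in 32 of 55 (58.2%), against 14.2%, with 4 of 6 H1, 11 of 18 H2A, 8 of 13 H2B, 1 of 6 H3 and 8 of 12 H4 windows. The octamer ATGCAAAT, which Oct-1 binds, was in 11 of 55 (20%), against 1.75%, in 7 H2A and 4 H2B windows. Some of these windows share the octamer, as those of the partners Hist1h2ae and Hist1h2bg do. AAACACA, which marks H1 promoters, was in 5 of 6 H1 windows, 8 of 55 in all (14.6%), against 7.14%. CCAAT was in 7 of 13 windows of genes called lower and 30 of 33 of measured genes not called. H4 made up 7 of those 13, so class and call cannot be told apart here. The windows of the gene with the lowest ratio and of the one with the highest level per length are shown 5′ to 3′ on each gene's strand. CCAAT (or its reverse complement ATTGG) and TATAAA are in capitals.
Hist1h4m (chr13:21811496-21811795, + strand): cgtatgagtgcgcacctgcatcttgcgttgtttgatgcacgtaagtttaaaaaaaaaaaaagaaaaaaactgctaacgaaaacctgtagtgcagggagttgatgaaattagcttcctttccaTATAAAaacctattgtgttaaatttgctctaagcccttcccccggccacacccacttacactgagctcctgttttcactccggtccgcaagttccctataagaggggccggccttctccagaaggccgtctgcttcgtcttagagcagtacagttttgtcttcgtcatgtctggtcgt
Hist1h2ak (chr13:21753863-21754162, - strand): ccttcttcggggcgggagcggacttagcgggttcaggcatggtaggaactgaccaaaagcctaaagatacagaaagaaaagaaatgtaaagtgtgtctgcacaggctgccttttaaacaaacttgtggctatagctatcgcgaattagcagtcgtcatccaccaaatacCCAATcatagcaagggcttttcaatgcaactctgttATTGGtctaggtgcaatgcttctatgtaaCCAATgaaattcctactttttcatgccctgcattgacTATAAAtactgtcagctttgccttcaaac
The Hist1h4m window held TATAAA and no CCAAT. The window of its near-identical copy Hist1h4n, whose ratio was -0.30, has almost the same sequence and also held TATAAA and no CCAAT. That of Hist1h2ak held TATAAA and 3 CCAAT matches on either strand, and it runs into the start of its head-to-head partner Hist1h2bn, 295 bases away.

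Genes with mostly unique sequence and genes with shared sequence are given apart. Of the 59 genes, 32 had at least 50% of their 50-base windows found in no other gene, and 28 of these were measured. They had a median ratio of -0.36, a summed ratio of -0.32, 6 lower calls and 1 higher call. For each count of calls given here, the share over protein-coding genes was 1.44% lower and 4.37% higher. The 23 measured genes below 50% had a median of -0.54, a summed ratio of -0.13, and 7 lower calls. In H4, 4 of the 9 genes with mostly unique sequence were called lower (median -0.51), and 3 of the other 4 (median -1.18). The unique share and the ratio had Spearman rho 0.10 over 51 genes, and the exon length and the ratio 0.27. Where the stem-loop lay within 100 bases of the annotated end, 19 genes had a median of -0.57 and 7 were called lower. Where the annotation ran over 100 bases beyond it, 18 genes had a median of -0.27, with 4 called lower and 1 higher. Bases beyond the stem-loop are part of the exon length, so its position and exon length cannot be told apart here.

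The mature miR-146a-5p is given with its seed, bases 2 to 8, in capitals (RefSeq, GRCm38.p6, chr11:43374435-43374456, - strand), because a site for it would be a 7-base match, AGTTCTC, after the stop codon.
mmu-miR-146a-5p: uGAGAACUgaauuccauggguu
Such a match was in 2 of the 43 measured histone genes with annotated bases after the stop (4.65%), Hist3h2a and Hist4h4, whose ratios were 1.62 and -0.37. Of 12249 measured protein-coding genes, 1538 (12.6%) held one. The annotated stretch had a median of 114 bases in histone genes and 1177 bases in protein-coding genes, so the 2 shares are not matched on length.

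Genes that act in S phase also had mostly negative ratios, with a median between that of H4 and that of the other histone genes. Of 40 measured S phase genes, 38 had negative ratios, the median was -0.48 and 4 were called lower, against 1.44% of protein-coding genes. Ung, the uracil-DNA glycosylase, had 384 counts in miR-146a-/- and 1805 in WT (-0.75, -0.92 to -0.59), and the replicative helicase gene Mcm2 had 2629 and 11664 (-0.67). E2f8 had the highest ratio, 0.06. The 38 measured histone genes outside H4 had a median of -0.32 and 6 lower calls, beside -0.80 and 7 for H4.

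Machinery of histone mRNA production and decay was closer to parity. Of 28 measured genes for histone mRNA transcription and 3′ processing, 1 was called lower, against 1.44% of protein-coding genes, and the median was -0.20. Of these, 3 were also in the S phase list. The called gene was Ncbp2, a cap-binding subunit, with 209 counts in miR-146a-/- and 1109 in WT (-0.93, -1.15 to -0.71). Slbp, which binds the stem-loop, had 749 counts in miR-146a-/- and 2345 in WT (-0.17, -0.29 to -0.05). Npat, the coactivator of histone genes, had 1038 and 2406 (0.27, 0.16 to 0.37), and Casp8ap2 had 767 and 2463 (-0.20). The U7 snRNP genes Lsm10 and Lsm11 had ratios of -0.22 and -0.52. Pou2f1, which encodes Oct-1, had the highest ratio, 0.49. Of 21 measured histone mRNA decay genes none was called, with a median of -0.19 and a range from Lsm7 (-0.67) to the uridylyltransferase gene Tut7 (0.51).

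Histone chaperones handle histones outside the nucleosome. Of 30 measured, 23 had negative ratios, where 53.4% of protein-coding genes did, the median was -0.37 and 2 were called lower, where 1.44% of protein-coding genes were. Hat1, which acetylates new H4, had 352 counts in miR-146a-/- and 1725 in WT (-0.81, -0.98 to -0.65), and the other was Mcm2, also counted under S phase. The H3-H4 chaperone genes Asf1b and Chaf1a had 177 and 746 counts (-0.60) and 769 and 3285 counts (-0.62), and neither was called. Supt6 had the highest ratio, 0.37.

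Replication-independent variants are histone genes that are mostly expressed throughout the cell cycle from polyadenylated mRNA, although H2afx in the list also gives a stem-loop mRNA. Of 11 measured, none was called lower, 2 were called higher, against 4.37% of protein-coding genes, and the median was -0.06. H3f3b, 1 of 2 genes for H3.3, had 11580 counts in miR-146a-/- and 17031 in WT (0.92, 0.89 to 0.96). Its partner H3f3a had 2997 and 8678 (-0.05, -0.12 to 0.01). H1fx, a linker variant gene, had 708 and 960 (1.04, 0.90 to 1.18). H2afz and H2afx had ratios of -0.42 and -0.22, and H2afj had the lowest, -0.56.

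**Figure D5:**
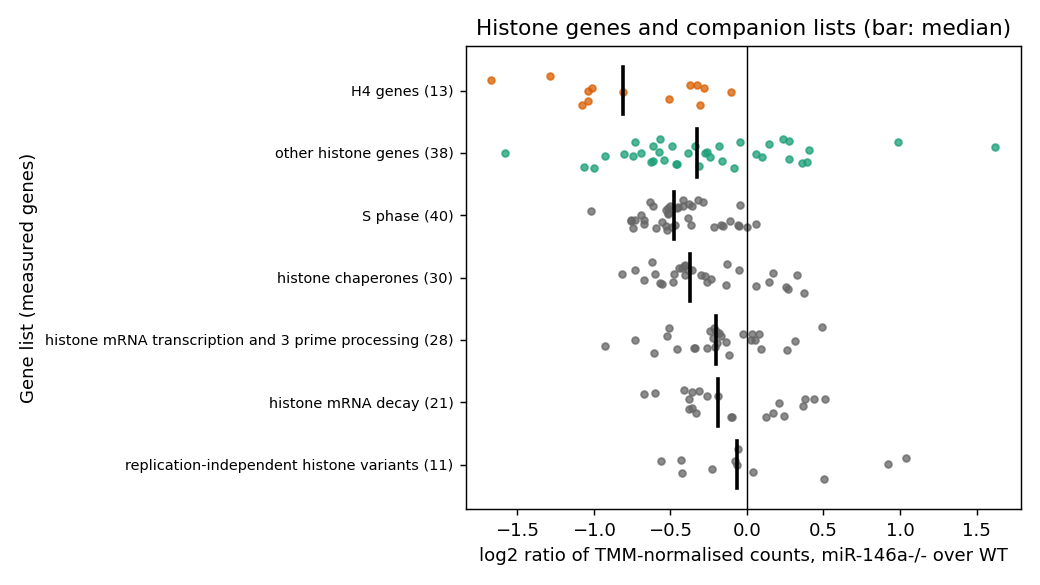
Log2 ratio, miR-146a-/- over WT, of each measured gene for H4, the other histone genes and the 5 companion lists, with the median of each as a vertical bar. H4 has the lowest median (-0.80) and the replication-independent variants the highest (-0.06).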

How the data were processed

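The authors deposited raw counts, whole numbers for each Ensembl gene in the 2 libraries, per the file headers made from alignments with splice junctions on the genome and with duplicate reads marked. The mm10 build, Salmon 0.9.0 and STAR 2.5.3a appear in the submitters' processing notes, with no role stated. The counting program, its annotation, its use of strand and its treatment of reads with several matches are not given here, so counts of overlapping genes and of near-identical copies are uncertain.

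Symbols, positions and transcripts came from GENCODE M21, which names 37693 of the 39017 identifiers. The other 1324 held 0.168% of miR-146a-/- counts and 0.286% of WT counts. TMM library sizes, from edgeR 4.0.16 under R 4.3.3, were computed over genes with at least 20 summed counts and came to 16724070 in miR-146a-/- and 46617575 in WT. With 1 library a genotype no test of genotype was made and no p-value is given. Log2 ratios took a prior count of 0.5 scaled to the library. Calls rest on exact 95% Clopper-Pearson intervals and a threshold of 1.5-fold. The code that makes them was tested on simulated data before use. Intervals cover counting error only, and may be too narrow even for that, since reads are not independent molecules. Levels per length divide CPM by annotated exon length, which long annotated ends lower.

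The histone genes, companion lists and rules were chosen with earlier results of these data known. Named histone genes were, in each class, the 2 with the highest level per length, the highest and lowest ratio, each called gene and each gene outside Hist1. In each companion list they were the called genes (up to 3 a direction) and the highest and lowest ratio with at least 200 counts, plus 11 genes set by name. Some genes taken by these rules are not reported here. Genes named for a sequence feature, a head-to-head pair, a copy group or an overlap were taken after their values were seen. The alternatives tried were size factors of DESeq2 1.42.0, upper-quartile scaling, totals of all or of protein-coding genes, other filters, a prior count of 5, a 2-fold threshold, WT counts thinned to the other library's depth, adjustment for length and GC content, and subsets of the histone genes. Statistics used Python 3.11.15 and scipy 1.17.1.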

Additional observations from a re-analysis of the deposited data

How the results depend on the processing

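No paired analysis was possible because each genotype had 1 library, and for the same reason no library could be left out. Of the 239 values recomputed under an alternative for sums, medians and counts, 183 stayed on their side of the threshold or within their spread, and the cause of the other shifts was not tested except where the alternative itself sets them. Scaling by total counts moved the median of all genes to -0.83, with 7077 genes called lower and 140 higher. Relative to that shift the histone genes stayed low (median -1.20, 43 lower, 0 higher). The sums were then -1.24 for H1, -0.83 for H2A, -0.88 for H2B, -0.99 for H3 and -1.38 for H4. They were -1.10 for Hist1, -0.80 for Hist2 (a change of sign), 0.10 for Hist3, -1.19 for Hist4, and -0.94 for the first Hist1 run and -1.13 for the third. The list medians became -1.30 for S phase, -1.19 for chaperones, -1.02 for transcription and 3′ processing, -1.01 for decay and -0.88 for replication-independent variants. Of the named genes above their WT level, Hist3h2a (0.80, not called) and Hist2h3c2 (0.18) stayed above it. The others turned negative, with Hist1h2ak at -0.42, Hist1h2bg at -0.54, Hist1h2bn at -0.67, Hist2h3b at -0.55, Hist2h2aa1 at -0.42 and Hist3h2ba at -0.43. Scaling by protein-coding totals moved the median of all genes to -0.17. It gave H4 -0.72 (called), Hist2 -0.14, Hist3 0.76 (not called), S phase -0.64, chaperones -0.53 and transcription and 3′ processing -0.36, with 574 genes called lower. With no filter before scaling, H4 was -0.62 (called), Hist2 -0.048, S phase -0.54 and transcription and 3′ processing -0.27, with 322 genes lower. A minimum of 200 counts gave H2A 0.028, with 491 genes higher and 130 lower. A 2-fold threshold left 2 histone genes lower, and 294 genes higher and 42 lower over all genes. The second Hist1 run (-0.81) and Hist3 (0.92) then lost their calls. Adjustment for length and GC content gave a histone median of -0.27, H2A 0.14, H2B 0.11, the first run 0.038 and the second -0.65 (not called), with 131 genes lower. Genes with mostly unique sequence alone gave 6 lower calls, Hist2 -0.20, the first run -0.75 (called) and the second -0.32 (not called). Genes without exon overlap gave 0 higher calls, Hist2 -0.10 and Hist3 0.39 (not called), and left no H2A gene. H4 without its most abundant gene was -0.71 (called). Thinned WT counts gave Hist3 0.79 (not called).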
